A study of Mus musculus with 6 samples.

Results

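The genes described here are 37 mouse genes of the endoplasmic reticulum (ER) stress response, the sensors, chaperones, disulfide isomerases, KDEL receptors and ER-associated degradation (ERAD) factors, chosen by name and read in the microglia of P15 mice. Of the 37, 36 are in the deposited table of 26789 genes. The expression of Derl3 was not analysed here. The filter, a mean normalized count of 10 or more over all libraries, was passed by 35 members, against 18007 genes in all, and Trib3 fell below it. The comparison was between 3 libraries from E3–E12 diet mice, whose mothers were fed a low sodium diet from E3 to E12, and 3 libraries from control mice, whose mothers were fed the control diet. By the study's methods, each library came from the rostral nucleus of the solitary tract (NST) of 6 pooled littermates of 1 litter at P15, male and female mice were used, and microglia were selected with magnetic beads against CD11b. The text deposited with the series gives laser microdissection as the isolation, so the isolation is uncertain.

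The ER folds secreted and membrane proteins. When unfolded chains build up in it, 3 membrane sensors signal: IRE1 (Ern1) splices the mRNA of Xbp1, PERK (Eif2ak3) phosphorylates eIF2α and so favors the translation of Atf4, and ATF6 is cut in the Golgi to free a transcription factor. Their targets raise the supply of chaperones and of the ERAD machinery, which recognizes misfolded glycoproteins, moves them out of the ER and delivers them to the proteasome. Microglia, the resident macrophages of the brain, make complement proteins and many glycosylated receptors, all of which are folded in the ER. Splicing, phosphorylation and cleavage of the sensors are not seen in gene-level RNA values, which give only the amount of each transcript.

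Normalized counts summed to between 9407141 and 17204618 per library, and between 3459 and 10640 genes were listed at 0 in a library, with the highest number in control replicate 2. The 17 microglial markers checked were all in the table. Their summed level ran from 125931 to 589182 in the controls and from 117424 to 399232 in E3–E12 diet mice, but Tyrobp, a defining microglial gene, was listed at 0 in all 3 E3–E12 diet libraries. Ppib, a folding enzyme that nearly every cell uses, was listed at 0 in control replicates 1 and 2, so a 0 in this table may not mean absence of the transcript. Markers of other cells were present as well. The summed level of 11 endothelial markers was 6067 in control replicate 2 and between 17994 and 31048 in the other libraries, although Pecam1 (3154) and Cldn5 (1207) were highest in control replicate 2. In bulk RNA, fewer cells of a type and less RNA per cell cannot be told apart.

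No member passed the test between the diets. With limma on log2(normalized count + 1), fitted over all 18007 genes and two-sided, 0 of the 35 members tested passed an adjusted p of 0.1 (Benjamini-Hochberg), as did 0 of all genes (percent called 0), and the adjusted p of each member was 0.999. At an unadjusted p under 0.05 there were 0 members, against 1.82% of all genes. The E3–E12 diet values overlapped the control values in all 35 members, whereas the groups did not overlap in 5.9% of all genes (2.99% with E3–E12 diet values above the controls and 2.91% below them). The median log2 fold change of the members (E3–E12 diet minus control) was -0.10, with 14 positive and 21 negative, beside a median of 0.09 and 54.4% positive among all genes. An absolute log2 fold change above 1 was found in 5 members, against 28.9% of all genes. Of these, 4 were above 1 (P4hb, Creld2, Kdelr1 and Edem1, against 19.3% of all genes) and 1 was below -1 (Kdelr3, against 9.57%). The shares over all genes are not matched for level, since 30 to 33 of the 35 members lay above the median gene in a library. Over all genes the median standard error was 0.85. The median standard error of a member's log2 fold change was 0.73, so a difference of that size in a single member was not detectable with 3 libraries against 3.

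**Figure D1:**
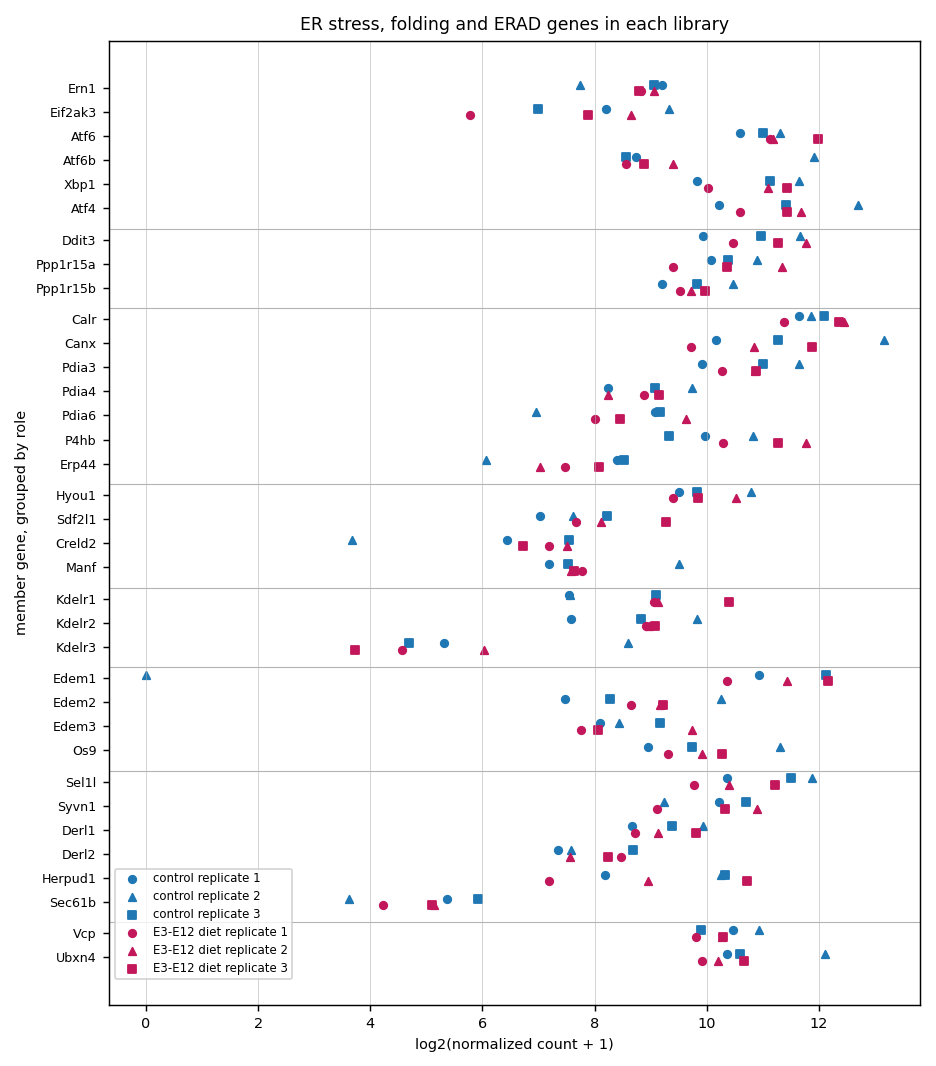
Level of each of the 35 members tested in every library, as log2(normalized count + 1) on the horizontal axis, with members in rows grouped by role, controls in blue, E3–E12 diet mice in magenta and replicate numbers by marker shape. In every row the 2 colors overlap, and control replicate 2 (blue triangles) lies at the right edge of 18 rows and at the left edge of 6.

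The sensors and their transcription factors gave a mixed picture. Ern1, which encodes IRE1, gave normalized counts of 591, 212 and 531 in the controls against 456, 530.2 and 442 in E3–E12 diet mice (replicates 1, 2 and 3, as in all such lists here). The E3–E12 diet libraries lay close together, inside the range set by control replicate 2 and the other controls. Eif2ak3, which encodes PERK, had 295, 643 and 126 normalized counts in the controls against 54.1, 402 and 234 in E3–E12 diet mice. Its highest value was in a control and its lowest in an E3–E12 diet library, and an antisense gene, Gm43292, overlaps its exons. Atf6, the cleaved sensor, had 1539, 2533 and 2067 normalized counts in the controls against 2232, 2337 and 4052 in E3–E12 diet mice, and its log2 fold change was 0.46 (standard error 0.58). On this scale only E3–E12 diet replicate 3 lay above every control. After rescaling to equal totals or quantile normalization all 3 did (groups apart in 5.83% and 6.85% of all genes).

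Atf6b, the paralog of Atf6, had the lowest log2 fold change of this role, at -0.80 (standard error 1.01). Its normalized counts were 429, 3849 and 377 in the controls against 376, 674 and 469.5 in E3–E12 diet mice. The value in control replicate 2 stood far above the other libraries, and without it the log2 fold change was 0.29. Xbp1, the transcription factor downstream of IRE1, had 903, 3191 and 2231 normalized counts in the controls against 1045, 2184 and 2753 in E3–E12 diet mice. The group means, 2108 ± 1149 for the controls against 1994 ± 869 for E3–E12 diet mice (SD, n = 3 libraries each), were nearly the same beside that spread, and the log2 fold change of -0.01 had a 95% confidence interval from -1.78 to 1.76. Atf4, the factor translated when PERK is active, had 1195, 6616 and 2742 normalized counts in the controls against 1546, 3268 and 2772 in E3–E12 diet mice. Control replicate 2 again held the highest value, and the sign of its log2 fold change (-0.21) turned without that library (0.41).

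The stress response acts on promoters through short elements, of which the best known, the ER stress response element (ERSE), is bound by ATF6 and XBP1 together with the factor NF-Y. In the promoter windows of RefSeq (GRCm38.p6, from 250 bases before to 50 after a start), 31 of the 37 members had an entry. The ERSE, searched on both strands as CCAAT and CCACG with 9 free bases between them, was found in 6 of these 31 (19.4%), against 0.137% of the 27025 genes with a window. The shorter ERSE-II, ATTGG and CCACG with 1 free base between them, was found in 1 member, Herpud1, against 0.0444% of genes. The members were chosen by name as genes of this response, so the share with the element is not independent of the choice. The windows with a match are shown. Each is printed 5′ to 3′ on the strand of its gene, with the fixed letters of the element in capitals and 10 bases on either side.
Calr (chr8:84847065-84847103, minus strand): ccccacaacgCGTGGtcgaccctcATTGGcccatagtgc
Canx (chr11:50325790-50325828, minus strand): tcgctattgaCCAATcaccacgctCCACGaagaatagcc
Pdia6 (chr12:17266481-17266519, plus strand): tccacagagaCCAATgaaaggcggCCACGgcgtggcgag
Creld2 (chr15:88819510-88819548, plus strand): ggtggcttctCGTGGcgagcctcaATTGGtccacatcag
Syvn1 (chr19:6046522-6046560, plus strand): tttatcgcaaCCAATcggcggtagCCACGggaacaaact
Derl3 (chr10:75893232-75893270, plus strand): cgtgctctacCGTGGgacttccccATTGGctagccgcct
Herpud1 (chr8:94386367-94386397, plus strand): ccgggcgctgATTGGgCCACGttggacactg
In Calr, Creld2 and Derl3 the element runs on the opposite strand, so its fixed letters appear as their reverse complement. All 7 matches lie upstream, at -44 bases from the start in Syvn1, the nearest, and -162 in Calr, the farthest.
The unfolded protein response element TGACGTGG was found in Kdelr3 and Vcp (6.45% of members with an entry and 0.714% of genes), and the site TGATGNAA, typical of ATF4 with C/EBP partners, in Trib3, Kdelr1 and Herpud1 (9.68% and 4.51%). Only Herpud1 held matches to more than 1 of these elements, and they did not overlap. A match to letters is a description of the window and not evidence of binding. The 6 measured members with an ERSE or ERSE-II had a median log2 fold change of 0.13, from -0.72 to 1.26, and the other 23 tested members with an entry had one of -0.13. Without control replicate 2 the order of these medians turned (-0.10 and 0.10).

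Downstream of PERK, the transcripts of the apoptotic and recovery branches were abundant in both groups, with an exception. Ddit3, which encodes the pro-apoptotic factor CHOP, had 973, 3265 and 2001 normalized counts in the controls against 1419, 3479 and 2487 in E3–E12 diet mice. In both diets replicate 1 was lowest and replicate 2 highest, and the log2 fold change was 0.32 (standard error 0.71). Its exons overlap a second annotated gene of the same name and the opposite-strand gene Mars, so its value is uncertain. Trib3, a pseudokinase induced by ATF4 and CHOP, was the exception. It was listed at 0 in 4 libraries, and the others read 3.05 (control replicate 3) and 1.8 (E3–E12 diet replicate 1). This was too low to be tested. Chac1, another ATF4 target, was also near the floor, between 0 and 24.8 normalized counts.

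The 2 regulatory subunits that direct protein phosphatase 1 to eIF2α, and so end the PERK signal, differed in spread. Ppp1r15a (GADD34), the stress-induced subunit, had 1079, 1909.9 and 1326 normalized counts in the controls against 678, 2609 and 1318 in E3–E12 diet mice. Ppp1r15b (CReP), the constitutive subunit, had 587, 1416 and 906 in the controls against 734, 838 and 999 in E3–E12 diet mice. The log2 fold changes were -0.08 and -0.10, each smaller than its standard error. Ppp1r15a is also induced when tissue is dissociated. Summed over 16 genes of the dissociation response, which include Fos, Jun and Atf3, the level was between 120350 and 383482 in controls and between 99278 and 236608 in E3–E12 diet mice, with the lowest value of each group in replicate 1 and the highest in replicate 2. Ppp1r15a followed the same order in both groups, and the part of dissociation in its level was not tested.

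The lectin chaperones and protein disulfide isomerases fold glycoproteins and form their disulfide bonds. Calr, calreticulin, had 3221, 3722 and 4376 normalized counts in the controls against 2655, 5622 and 5240.5 in E3–E12 diet mice. On the log2 scale it had the smallest spread among controls of this role, and its log2 fold change of 0.19 lay within a 95% confidence interval from -1.21 to 1.60. Canx, calnexin, its membrane-bound partner, had 1148, 9125 and 2479 normalized counts in the controls against 841, 1844 and 3749 in E3–E12 diet mice. The control mean was carried by replicate 2, and the log2 fold change was -0.72 with that library and 0.09 without it. Pdia3, the isomerase that works with both lectins, had 970.0, 3223 and 2045 normalized counts in the controls against 1239, 1869 and 1876 in E3–E12 diet mice.

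P4hb, the archetypal protein disulfide isomerase, had the highest log2 fold change of this role, 1.06 (standard error 0.70, 95% confidence interval from -0.61 to 2.73). Its normalized counts were 1008, 1816 and 646 in the controls against 1256, 3491 and 2460.3 in E3–E12 diet mice, a mean of 2402 ± 1118 against 1157 ± 599 (SD, n = 3 libraries each). An exact permutation test of the mean log2 level gave p = 0.2 (two-sided, n = 3 against 3, where 0.1 is the smallest possible). E3–E12 diet replicate 1 lay below control replicate 2, which was the only overlap between the groups. Its log2 fold change stayed positive, between 0.71 and 1.47, with any 1 library left out. Pdia4 had 299.7, 857 and 542 normalized counts in the controls against 473, 301 and 569 in E3–E12 diet mice. The 2 remaining members of this role were lowest in control replicate 2. Pdia6 had 540.3, 123 and 576 in the controls against 257, 789.6 and 348 in E3–E12 diet mice, and Erp44, which retrieves escaped oxidoreductases from the early Golgi, had 337, 65.8 and 366 in the controls against 177, 130.04 and 270.2 in E3–E12 diet mice. For both, the sign without control replicate 2 was negative (-0.43 and -0.93).

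Hyou1, Sdf2l1, Creld2 and Manf encode luminal proteins that are among the most strongly induced by ER stress in many cells, and none stood apart here. Hyou1, a large HSP70-like chaperone, had 724, 1766 and 911 normalized counts in the controls against 670.5, 1464 and 918 in E3–E12 diet mice, so the ranges of the groups were nearly the same. Sdf2l1, a cofactor of the BiP cycle, had 129.8, 194 and 298 in the controls against 203, 277 and 618 in E3–E12 diet mice. Only E3–E12 diet replicate 3 lay above every control (log2 fold change 0.73, standard error 0.69). Creld2 had 86.2, 11.8 and 185 in the controls against 145, 182 and 105 in E3–E12 diet mice. Its log2 fold change of 1.26 (standard error 1.04) rested on the low value of control replicate 2 and was 0.15 without it. Manf, a secreted factor with trophic effects on neurons, was even among E3–E12 diet libraries, at 219, 191 and 197, and uneven among controls, at 144, 727 and 183. Its exons overlap 3 other genes, 1 of them on the same strand.

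KDEL receptors bind the tail of escaped ER residents in the Golgi and return them. Kdelr1 had the smallest unadjusted p of all members in limma (0.0886). Its normalized counts were 185, 188 and 549 in the controls against 536, 558 and 1342 in E3–E12 diet mice, so that the lowest E3–E12 diet value lay just under the highest control. The mean of 812 ± 459 was 2.64 times the control mean of 307 ± 209 (SD, n = 3 libraries each). Its log2 fold change was 1.46, with a standard error of 0.73 and a 95% confidence interval from -0.29 to 3.22. With any 1 library left out it was between 1.03 and 1.98, and no other member stayed above 1 throughout. The study lists Kdelr1 and Edem1 as upregulated in E3–E12 diet mice, by DESeq2 on these same libraries at an adjusted p under 0.1. Their direction here is therefore not independent evidence, and neither passed that threshold in limma, where no gene did. Outside the members, the study tags Rack1 (upregulated) and Atf3, Add1 and Dnajb1 (downregulated) with ER stress or the unfolded protein response. Kdelr2 had 191, 906 and 453 in the controls against 485, 503 and 540.4 in E3–E12 diet mice, where the values were close together. Kdelr3, the least abundant receptor, had 38.8, 384 and 25.0 in the controls against 22.6, 64.1 and 12.3 in E3–E12 diet mice, and its log2 fold change of -1.43 (standard error 1.19), the lowest of all members, was -0.23 without control replicate 2. The log2 fold change of Kdelr2 was 0.25 and ran from -0.33 to 0.79 with 1 library left out. An opposite-strand gene, Ddx17, overlaps the exons of Kdelr3.

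**Figure D2:**
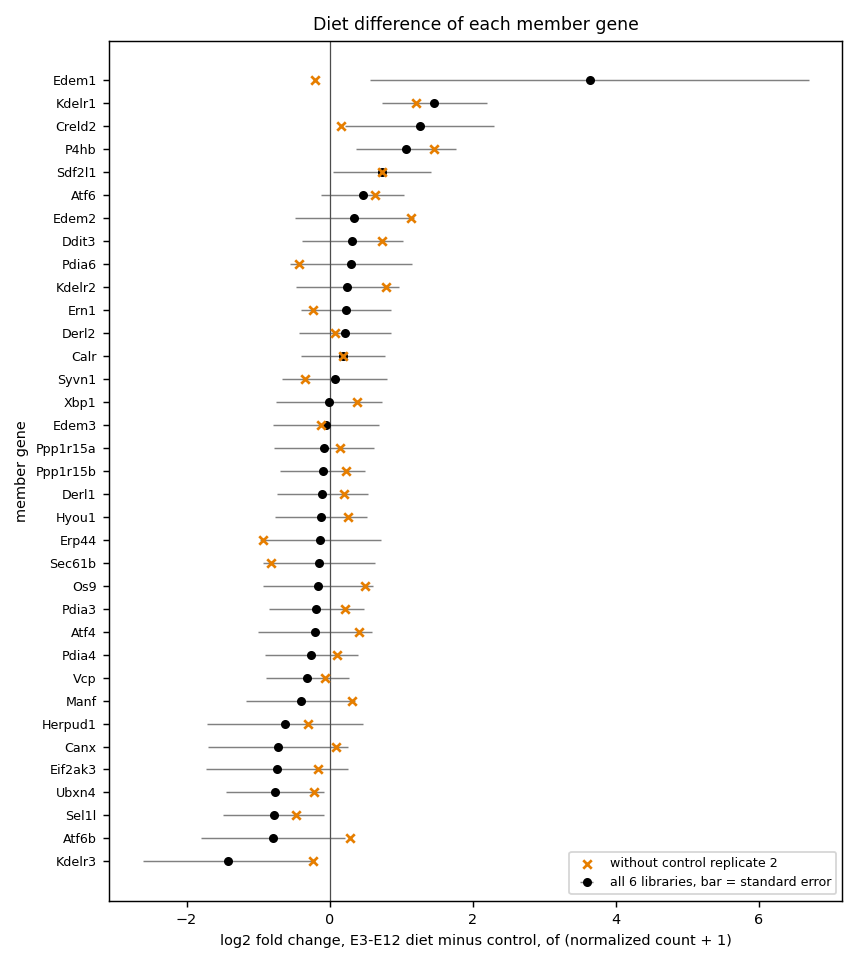
Log2 fold change of each of the 35 members tested (E3–E12 diet minus control, of normalized count + 1) on the horizontal axis, with black points and standard error bars for all 6 libraries and orange crosses for the fit without control replicate 2. Edem1 lies at 3.64 with all libraries and at -0.21 without that control, and Kdelr1 and P4hb stay above 1 in both.

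The mannosidase-like EDEM proteins mark misfolded glycoproteins for degradation, and OS-9 reads the mark. Edem1 showed the highest log2 fold change of the members, 3.64, and also the largest standard error, 3.07 (95% confidence interval from -3.70 to 10.97, exact permutation p = 0.6). In E3–E12 diet mice Edem1 read 1323, 2772 and 4591 normalized counts, control replicates 1 and 3 read 1959.8 and 4479.9, and control replicate 2 was listed at 0. Outside that library the ranges of the groups were nearly the same, and the size of the fitted value depends on the added count (2.53 with 10 in place of 1). Its paralogs did not drop in that library. Edem2 had 177, 1224 and 308 in the controls, with its highest value in control replicate 2, and 399.7, 577 and 598 in E3–E12 diet mice. Edem3 had 274, 347 and 577 in the controls against 217, 857 and 266 in E3–E12 diet mice. Os9 had 498, 2544 and 849.8 in the controls against 637, 971 and 1241 in E3–E12 diet mice. Of these 4 genes, Edem2 moved most when control replicate 2 was left out, apart from Edem1, from a log2 fold change of 0.35 to 1.14.

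The retrotranslocation complex is built around the ubiquitin ligase HRD1 (Syvn1) and its partner SEL1L. Sel1l had 1318, 3752 and 2899 normalized counts in the controls against 873, 1342 and 2392 in E3–E12 diet mice, a log2 fold change of -0.78 (standard error 0.70) that stayed negative, between -1.23 and -0.44, with any 1 library left out. Syvn1 had 1185, 601 and 1661 in the controls against 555, 1909.8 and 1283 in E3–E12 diet mice. The partners were therefore not parallel in control replicate 2, where Sel1l was highest and Syvn1 second lowest. Derl1, a Derlin of the channel, had 408, 980.2 and 664 in the controls against 423, 562 and 895 in E3–E12 diet mice. Derl2 had 162, 190.4 and 412 in the controls against 354, 187 and 302 in E3–E12 diet mice. Both Derlin genes overlapped between the diets with log2 fold changes (-0.11 and 0.22) under their standard errors. Herpud1, which organizes the complex and is strongly stress-inducible, had 289.7, 1215 and 1289 in the controls against 145, 497 and 1688 in E3–E12 diet mice, the widest spread on the log2 scale among E3–E12 diet libraries of all 35 members. Sec61b, a subunit of the translocon, was low throughout, at 40.1, 11.3 and 59.9 in the controls against 17.7, 34.0 and 33.5 in E3–E12 diet mice, and other annotated genes share 17.4% of its stretches of 50 bases.

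Extraction from the membrane is driven by the ATPase p97 (Vcp), which Ubxn4 (erasin) anchors at the ER. Vcp had 1418, 1956 and 958 normalized counts in the controls against 899, 1239 and 1247 in E3–E12 diet mice. Because 40.5% of its 50-base windows are shared with another annotated gene, mostly Vcp-rs, its value is uncertain. Ubxn4 had 1322, 4444 and 1539 in the controls against 971, 1171 and 1617 in E3–E12 diet mice (log2 fold change -0.77, standard error 0.69), with the highest value again in control replicate 2. Both log2 fold changes stayed negative with any 1 library left out, although for Vcp the value came as near to 0 as -0.06.

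**Figure D3:**
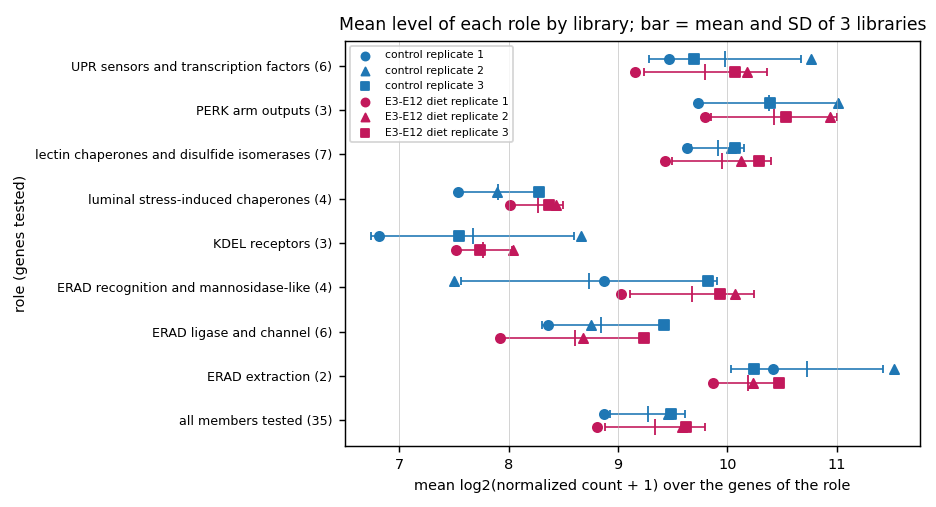
Mean log2(normalized count + 1) over the tested genes of each role, 1 point per library (controls blue, E3–E12 diet mice magenta, marker shape by replicate number), with the mean and SD of the 3 libraries as bars. The diets overlap in every role and over all 35 members, where the mean of the controls is 9.27 and that of E3–E12 diet mice 9.34.

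Averaged over the 35 members, the log2 level of the controls was 9.27 ± 0.346 and that of E3–E12 diet mice 9.34 ± 0.460 (SD, n = 3 libraries each), a difference smaller than either spread. The group means differed most for the EDEM and OS-9 role, by 0.94, and this was 0.33 without control replicate 2, in which Edem1 was listed at 0. The 4 luminal chaperones differed by 0.36 with and without that library (8.27 ± 0.229 against 7.91 ± 0.370), and the ranges of the diets overlapped. Opposite shifts lay behind the equal value. Without that library the log2 fold change of Creld2 fell from 1.26 to 0.15, while Manf rose from -0.41 to 0.31 and Hyou1 from -0.12 to 0.25. The members took between 0.265% and 0.372% of the normalized counts in the controls and between 0.261% and 0.408% in E3–E12 diet mice.

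Single libraries held most of the extreme values. Control replicate 2 held the highest value of 18 of the 35 members (51.4%, against 26.3% of all genes tested) and the lowest of 6 (17.1%, against 38.2%). The 6 were Ern1, Pdia6, Erp44, Creld2, Edem1 and Sec61b. The lowest value lay in replicate 1 of either diet in 27 members (77.1%, against 29.0% of all genes), and only Ern1 had its highest value there. The summed microglial markers moved the same way, being lowest in these replicates (125931 and 117424) and highest in control replicate 2 (589182), as did the 7 border macrophage markers (6019 and 5645 against 21060). The 9 mural and fibroblast markers (1721 there, 6425 to 17672 elsewhere) and the 9 astrocyte markers (1936, 4876 to 10375 elsewhere) had their lowest sums in control replicate 2, where Ly6c1, Itm2a, Kcnj8, Gfap and Aldh1l1 were listed at 0. Other lists did not follow this order. The choroid plexus sum was 42705 in E3–E12 diet replicate 1 and 84.3 in E3–E12 diet replicate 2, the oligodendrocyte and neuron sums were not lowest in control replicate 2 (14019 and 2176), and the neutrophil sum was highest there (2252, against 309.7 to 678 elsewhere). Normalized totals were also unequal, largest in control replicate 2 (17204618) and smallest in replicates 1 (9671119 in controls, 9407141 in E3–E12 diet mice). As a share of the total, the members were highest in E3–E12 diet replicate 2 (0.408%, against 0.372% in control replicate 2). Their share was lowest in replicates 1 (0.265% and 0.261%). The part of cell composition in the members' levels, and that of unequal totals in the extremes, was not tested. The spread of the log2 level was larger among controls than among E3–E12 diet mice in 26 of the 35 members (74.3%, against 59.7% of all genes), with a median SD of 0.90 against 0.57.

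**Figure D4:**
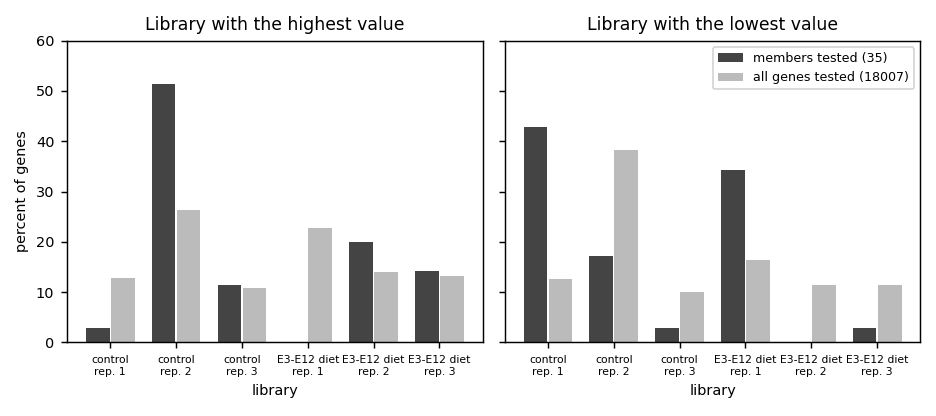
Percent of genes that have their highest (left) or lowest (right) value in each of the 6 libraries, for the 35 members tested (dark bars) and all 18007 genes tested (light bars). Control replicate 2 holds the highest value of 51.4% of members, and control and E3–E12 diet replicates 1 hold the lowest of 42.9% and 34.3%.

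Without control replicate 2, 0 members passed the adjusted threshold in limma and 0 had an unadjusted p under 0.05 (2.38% of all genes). Of the 35, 3 (P4hb, Kdelr1 and Edem2) had a log2 fold change above 1 (9.1% of all genes) and 0 had one below -1 (12.2%) beside 21.3% of all genes past 1 in either direction. In this fit 22 of 35 had a positive log2 fold change (49.6% of all genes), and the groups did not overlap in 8 (22.9%, against 14.4% of all genes, since fewer libraries separate more easily). Atf6, P4hb, Manf, Kdelr2 and Edem2 were then higher in E3–E12 diet mice (6.7% of all genes), and Ern1, Erp44 and Sec61b were lower (7.66%). Rescaling each library to the same total moved the median log2 fold change of all genes from 0.09 to 0.20. The groups then did not overlap in 4 members, with Atf6, P4hb and Kdelr1 higher and Ubxn4 lower (5.83% of all genes). In that fit 19 members were positive and 16 negative, beside 10869 of all 18007 genes positive. After quantile normalization 21 were positive and 14 negative, beside 8952 of all 18007 genes positive. No member was past the adjusted threshold in these fits.

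Levels per kilobase of merged annotated exon compare genes only roughly, since the length joins all annotated isoforms, whether or not they are expressed. On this scale Calr was the most abundant member, with a mean of 1437 normalized counts per kilobase over the 6 libraries. Ddit3 (1326, an uncertain value as given above) and Atf4 (1282) followed. These values were closer together than the spread between libraries. Canx (681), Xbp1 (631), P4hb (622) and Pdia3 (596) came next. The place of Canx rested on control replicate 2, without which its mean was 429, below P4hb (619), Xbp1 (561) and Pdia3 (509.6). The sensors Ern1 (56.3) and Eif2ak3 (48.5) were near the low end, and Derl2 (33.3) and Sec61b (25.8) were lowest. Without that library the mean of Atf6b went from 373 to 169 and that of Kdelr3 from 64.6 to 23.1, which was then the lowest. Among all genes tested, the median member lay between the 79.8th and the 86.7th percentile of the level in a library.

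A wider list of 76 further genes of the pathway was read in the same fit, of which 69 passed the filter. None was past the adjusted threshold in limma (0 genes, adjusted p = 0.999 each). At an unadjusted p under 0.05 there was 1 (1.45%, against 1.82% of all genes). The groups did not overlap in 6 (8.70%, against 5.9% of all genes). The median log2 fold change was -0.11, with 30 positive and 39 negative. By role it was 0.29 for 9 luminal chaperones, 0.26 for 7 oxidoreductases, -0.17 for 18 signaling genes, -0.32 for 16 ERAD genes and -0.11 for 19 translocon and glycan genes. Hspa5, which encodes BiP, the chaperone that holds the sensors inactive, had 3619, 3014 and 5487 normalized counts in the controls against 2339.8, 5425 and 3686 in E3–E12 diet mice. Atf3, also in the dissociation list, had 1404, 8804 and 2977 in the controls against 214, 1246 and 1417 in E3–E12 diet mice. It was 1 of 8 further genes with a log2 fold change below -1 (11.6%, against 9.57% of all genes). Above 1 there were 6 (8.70%, against 19.3%).

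Of the 6 further genes whose groups did not overlap, 5 had all their E3–E12 diet values under the lowest control. This was 7.25% of the 69, against 2.91% of all genes. Sec61g, the small subunit of the translocon, was the one with an unadjusted p under 0.05 in limma (0.00557). It had 20.03, 82.2 and 59.4 normalized counts in the controls against 4.82, 4.36 and 7.65 in E3–E12 diet mice (log2 fold change -2.87, standard error 0.71), and -2.46 without control replicate 2. Nck1, an adaptor that modulates eIF2α phosphorylation, had 239.9, 479 and 466 in the controls against 86.2, 177 and 187 in E3–E12 diet mice (log2 fold change -1.40, standard error 0.64). Ngly1, the peptide N-glycanase of ERAD, had 155, 287 and 168 in the controls against 71.7, 89.0 and 146 in E3–E12 diet mice. For Ngly1 the gap between the groups was small.

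Eif2ak4 (GCN2), the amino acid sensor that also phosphorylates eIF2α, had 509, 1421 and 611 normalized counts in the controls against 421, 403 and 386 in E3–E12 diet mice. Ganab, which trims glucose from new glycans, had 993, 4825 and 1091 in the controls against 834, 917 and 882 in E3–E12 diet mice, with a log2 fold change of -0.98 that was -0.25 without control replicate 2. Wfs1, an ER membrane protein of calcium balance, was the only one higher (1.45% of the further genes tested, against 2.99% of all genes). It had 202, 193 and 199.8 in E3–E12 diet mice and 166, 127 and 142 in the controls (log2 fold change 0.46, standard error 0.52).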

How the data were processed

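RNA-seq was measured in 6 libraries of P15 microglia. The authors deposited normalized counts per gene (a signal scaled between libraries, neither whole reads nor logged). Per the labels, the submitters' processing notes name FastQC, STAR, featureCounts and DESeq2 with build GRCm38; versions are not given in the sources used here. The table's name mentions surrogate variables, whose use is not described. Between 33.6% and 60.4% of values under 6 were within 0.02 of a whole multiple of the best single step of a library. Reads could therefore not be recovered, the depth of each library is unknown and count tests were not run. The study's methods give only a range of reads per sample. Of 26789 identifiers, 26507 were matched to a symbol (GENCODE M21, GRCm38). Besides the overlaps given above, exons of Ppp1r15a, Ppp1r15b, Pdia3, Pdia6, Syvn1, Derl2 and Vcp overlap an opposite-strand gene. Those of Pdia4 overlap a same-strand one, and Derl1 shares 5.56% of its 50-base windows with other genes.

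Genes with a mean of at least 10 were tested as log2(normalized count + 1) with limma 3.58.1 (R 4.3.3), two-sided, without covariates, with Benjamini-Hochberg adjustment over 18007 genes and the study's threshold of 0.1. Fold changes on this scale understate low genes. The fit was tested on simulated data. An exact permutation test was used for a single gene. All 37 members are named, and of the further pathway genes those whose groups did not overlap (at most 6), with Hspa5, Chac1, Ppib and Atf3 added after their values were seen. Test values were to be printed for the 2 highest and 2 lowest members, those listed at 0, Edem1 and Kdelr1, and those of other members were added after their values were seen. Members and lists were chosen with earlier results of these data known. Replicate numbers were not used as pairs: same-numbered libraries deviated from their group means with correlations of 0.260, 0.0348 and 0.142 across genes. Alternatives were another pseudocount, filter, scaling, prior variance, a replicate block and each library left out; the level per kilobase without control replicate 2 was added after seeing the data.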

Additional observations from a re-analysis of the deposited data

How the results depend on the processing

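In all 15 alternatives 0 of the genes tested and 0 members passed the adjusted threshold (limma). Between 156 and 551 genes had an unadjusted p under 0.05, against 327. Among members this was reached only by Kdelr1, with a replicate block, with an intensity trend in the prior variance and without control replicate 3. The members' median log2 fold change was -0.10, 0.02 after quantile normalization or equal totals, and -0.29 to 0.15 with 1 library left out. The count of members whose groups did not overlap was 0, but 3 after quantile normalization (6.85% of all genes), 4 after equal totals (5.83%) and 1 to 8 of 35 with 1 library left out (12.6% to 17.8% of all genes), where fewer samples separate more easily. The highest, 8, came without control replicate 2 (14.4% of all genes).

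The sign of the log2 fold change turned after quantile normalization in Xbp1 (0.17), Atf4 (0.013), Ppp1r15a (0.021), Ppp1r15b (0.042), Pdia3 (0.020), Hyou1 (0.00016) and Os9 (0.011), and after equal totals in Xbp1 (0.11), Ppp1r15a (0.044), Ppp1r15b (0.022), Edem3 (0.070) and Derl1 (0.013); the cause was not tested. With 1 library left out it turned in 26 of 35 members, whose values ranged as follows: Ern1 (-0.24 to 0.50), Eif2ak3 (-1.35 to 0.089), Atf6b (-1.38 to 0.29), Xbp1 (-0.53 to 0.40), Atf4 (-0.82 to 0.41), Ddit3 (-0.15 to 0.72), Ppp1r15a (-0.56 to 0.41), Ppp1r15b (-0.41 to 0.22), Calr (-0.0050 to 0.54), Canx (-1.40 to 0.092), Pdia3 (-0.65 to 0.21), Pdia4 (-0.65 to 0.10), Pdia6 (-0.43 to 0.68), Erp44 (-0.93 to 0.30), Hyou1 (-0.42 to 0.25), Manf (-0.85 to 0.31), Kdelr2 (-0.33 to 0.79), Edem1 (-0.21 to 5.86), Edem2 (-0.25 to 1.14), Edem3 (-0.66 to 0.33), Os9 (-0.68 to 0.49), Syvn1 (-0.34 to 0.57), Derl1 (-0.43 to 0.20), Derl2 (-0.046 to 0.63), Herpud1 (-1.51 to 0.25) and Sec61b (-0.83 to 0.33). Leaving out control replicate 2 turned 16 of them.

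The replicate block gave 468 genes at an unadjusted p under 0.05, 0 past the adjusted threshold and the same member median of -0.10. Not every library correlated best with its own number, so the numbers were not read as pairs. The count models edgeR and DESeq2 were not run because whole reads could not be recovered, and the depth of each library is unknown.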
